A study of Homo sapiens with 8 samples.

Results

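The comparison described here is that of low melatonin, 1 and 2 mM, with DMSO in 5637 and UM-UC3 cells, established human bladder cancer (BLCA) cell lines. It uses 6 of the 8 libraries of the series, the 4 melatonin libraries and the 2 DMSO libraries, and the 4 mM libraries were left out. All cells were labelled WT. The medium, always with fetal bovine serum, was RPMI for the 5637 line and MEM for the UM-UC3 line, and treatment lasted 24 h. Each dose of each line is 1 library, so that the groups are 5637 with DMSO, 1 mM or 2 mM melatonin and UM-UC3 with DMSO, 1 mM or 2 mM melatonin, and no group has a replicate. The cell line and its medium cannot be told apart. The question was which genes respond early in the dose range, and whether the lines share them.

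Melatonin is the indoleamine hormone of the pineal gland. It acts through membrane receptors at low concentrations, and millimolar doses, as used on tumour cells in culture, are far above the concentrations in blood. Cells that lack amino acids, hold misfolded proteins in the endoplasmic reticulum or suffer oxidants slow their protein synthesis and make the transcription factor ATF4, which switches on ATF3, DDIT3 and genes for amino acid supply. This is the integrated stress response. The p53 target CDKN1A (p21) stops the cell cycle in many kinds of stress.

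The values are taken as FPKM, which count fragments per kilobase of a transcript in a library scaled to a common size, so that levels of different genes can be set side by side. Of 60612 genes in the sheet, the 12647 with a mean of at least 1 over the 6 libraries were tested. The sums of FPKM lay between 334784 and 362073, and the read depth is unknown. The mitochondrial genome's messenger RNAs made up 10.7, 13.0 and 14.05% of this sum over the doses 0, 1 and 2 mM in the 5637 line, and 9.97, 8.80 and 15.4% in the UM-UC3 line. Of 13 urothelial markers, 10 were at 1 FPKM or more in each 5637 library, but 3 or 4 in the UM-UC3 libraries, where the list summed to between 138.6 and 210.5 FPKM, against 2645 to 3856 in 5637 cells. KRT5, the keratin of basal urothelium, had between 290.9 and 638.7 FPKM in 5637 cells and at most 0.128 in UM-UC3 cells, so that most of the defining markers were below 1 FPKM in UM-UC3 cells. The 6 fibroblast markers summed to between 1.38 and 7.93 FPKM. Endothelial markers were below 1 FPKM in all 6 libraries, and of 6 leukocyte markers CD68, a lysosomal protein of macrophages, alone stood above it in UM-UC3 cells, at 61.0 to 106.1 FPKM. In 5637 cells the highest value of a leukocyte marker was 1.09 FPKM, at 2 mM.

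More genes stood away from DMSO at 2 mM than at 1 mM in both lines. In such bulk samples fewer cells of a type and less RNA per cell cannot be told apart. At least 2-fold above DMSO, on the scale of FPKM + 1, were 44 genes in 5637 cells at 1 mM and 351 at 2 mM, and 29 and 148 in UM-UC3 cells. At least 2-fold below were 103 and 241 genes in 5637 cells and 58 and 320 in UM-UC3 cells. All 4 melatonin libraries stood above the DMSO library of their line for 3025 genes (23.9%) and below it for 1867 (14.8%). Across the 12647 genes the mean log2 difference of one line correlated with that of the other with a Pearson coefficient of 0.31 and a Spearman coefficient of 0.35, a description over genes, which are not independent.

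**Figure D1:**
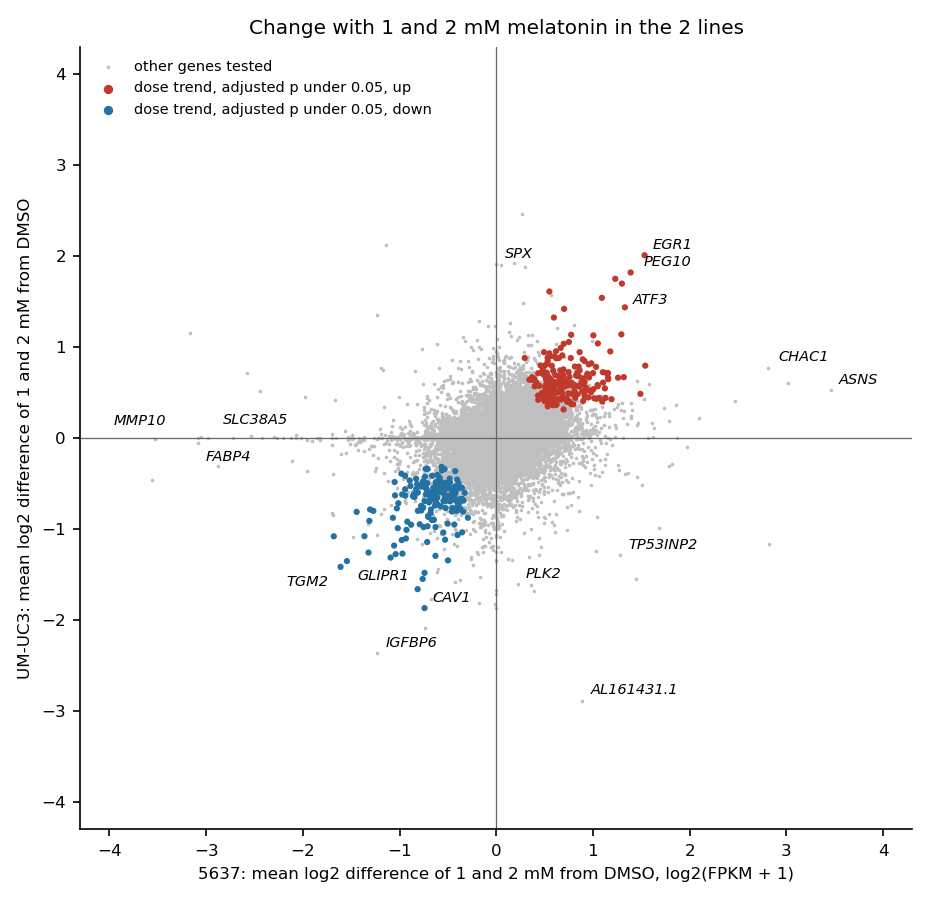
Mean log2 difference of the 1 and 2 mM libraries from DMSO in 5637 cells (x axis) and in UM-UC3 cells (y axis), on log2(FPKM + 1), 1 point per tested gene. Red and blue points are the 190 genes that rose and the 161 that fell over 0 to 2 mM in both lines. EGR1 and PEG10 lie at the upper right, TGM2, GLIPR1 and IGFBP6 at the lower left, and MMP10 and SLC38A5 lie far along the 5637 axis only. ASNS lies at 3.46 on the 5637 axis and 0.53 on the UM-UC3 axis.

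When 1 and 2 mM were taken as 1 level of melatonin and the line as a block, no gene passed an adjusted p of 0.05 in limma (0.0%, smallest adjusted p 0.297). Without adjustment 1157 genes were higher and 669 lower at a p under 0.05. The same comparison within a line called 0 genes in 5637 cells (smallest adjusted p 0.0782, 838 higher and 590 lower unadjusted) and 0 in UM-UC3 cells (0.704, 391 and 398). The difference between the lines called 0 as well (0.517, 255 and 274). In this comparison a step between 1 and 2 mM counts as spread, and the fit has 3 residual degrees of freedom. A dose trend from 0 to 2 mM, in which such a step is signal, called 190 genes that rose (1.5%) and 161 that fell (1.27%), all of them on the same side of DMSO in all 4 melatonin libraries. Their median fitted log2 change from 0 to 2 mM was 0.87 and -0.89, and 60 and 52 of them changed at least 2-fold. The value moved the same way at each step in both lines for 184 of the risers and 156 of the fallers, a pattern that a linear trend selects. With rescaled libraries 182 rose and 245 fell, so that the larger side depends on the scaling. Without the 5637 library at 0, 1 or 2 mM the count of 351 was 9, 0 or 60, and without the UM-UC3 library at 0, 1 or 2 mM it was 3, 5 or 652. Of the 351 genes themselves 9, 0 and 42 were called again in the first 3 of these fits and 2, 5 and 237 in the others.

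A simple rule of size gave the shared early responders. Only 5 genes were at least 2-fold away from DMSO in all 4 melatonin libraries. EGR1 and PEG10 were above it (0.0158%), and IGFBP6, TGM2 and GLIPR1 below it (0.0237%). With rescaled libraries PEG10 no longer met the rule, its log2 difference in UM-UC3 cells at 1 mM being 0.9999, and the other 4 did. These genes were chosen for this pattern, so their values at 1 and 2 mM are a description, and the trend test uses the same libraries.

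EGR1, a zinc finger transcription factor that growth factors and stress induce within minutes, lies on the plus strand of chromosome 5. At 0, 1 and 2 mM, the order used for all values that follow, 5637 cells had 6.42, 21.1 and 19.9 FPKM and UM-UC3 cells 3.42, 13.1 and 21.4. In 5637 cells it was as high at 1 mM as at 2 mM, and in UM-UC3 cells it was higher at each dose. The fitted log2 change over 0 to 2 mM was 1.92 (standard error 0.36, adjusted p = 0.0470). PEG10, a paternally expressed gene derived from a retrotransposon (plus strand, chr7:94656325-94669695, GRCh38), had 82.7, 182.6 and 260.9 FPKM in 5637 cells and 8.03, 17.9 and 52.8 in UM-UC3 cells. It rose by 2.11 on the log2 scale (standard error 0.23, adjusted p = 0.0147), from a level in DMSO that was higher in 5637 cells.

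TGM2, tissue transglutaminase, which crosslinks proteins (minus strand, chr20:38127385-38166578), had 167.0, 77.4 and 37.6 FPKM in 5637 cells and 35.7, 14.03 and 11.6 in UM-UC3 cells. It fell by 1.83 on the log2 scale (standard error 0.21, adjusted p = 0.0166), and in each line the step from DMSO to 1 mM was the larger part in FPKM. GLIPR1 (plus strand, chr12:75480753-75503863), a secreted or membrane protein of the CAP family, had 5.26, 1.57 and 0.79 FPKM in 5637 cells and 10.4, 3.47 and 3.49 in UM-UC3 cells. In UM-UC3 cells its level at 1 mM was that at 2 mM, and over both lines it fell by 1.58 (standard error 0.28, adjusted p = 0.0425). IGFBP6, which binds insulin-like growth factor 2 (plus strand, chr12:53097436-53102345), had 23.0, 7.77 and 11.0 FPKM in 5637 cells and 76.9, 22.9 and 8.58 in UM-UC3 cells. It did not pass the trend test (log2 change -2.02, standard error 0.52, adjusted p = 0.0923), and in 5637 cells it was lower at 1 mM than at 2 mM.

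**Figure D2:**
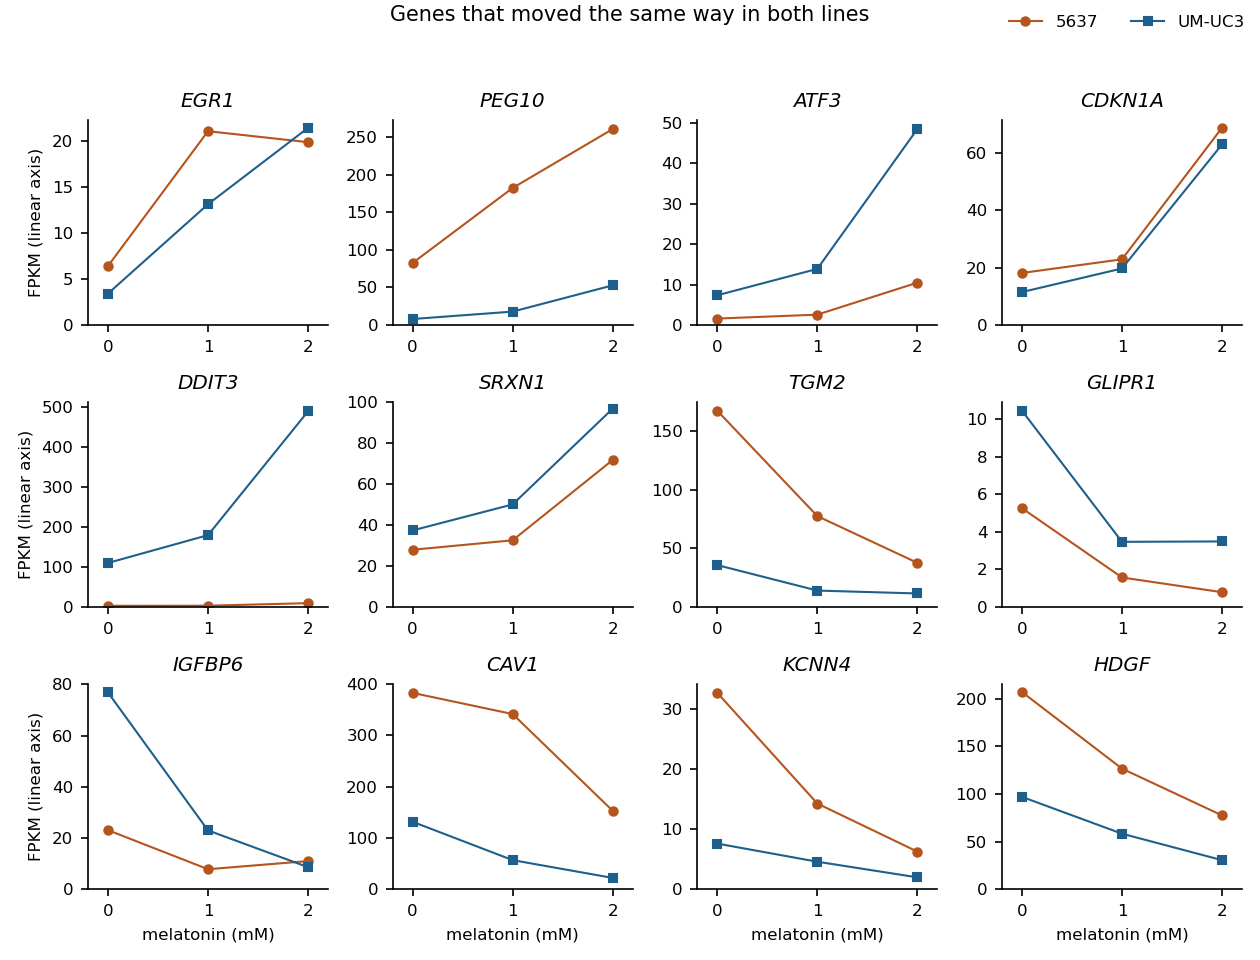
FPKM (y axis, linear, from 0) against the melatonin dose in mM (x axis) for 12 genes, with 5637 cells as circles and UM-UC3 cells as squares, 1 library per point and no replicates. In all 12 panels both melatonin libraries of each line lie on the same side of that line's DMSO library. ATF3 and CDKN1A make most of their step between 1 and 2 mM, TGM2 and GLIPR1 between 0 and 1 mM.

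The 10 largest rises among genes called in the trend with a mean of at least 4 FPKM were chosen after their values were seen. They were those of ATF3, PEG10, CDKN1A, H2BC5, EGR1, DDIT3, H2AC6, DNAJB9, DNAJC6 and SRXN1. ASNS and CHAC1 had larger fitted rises (2.80 and 2.51) and did not pass the trend test (adjusted p 0.163 and 0.104). ATF3, a stress-induced factor of the ATF family, had 1.60, 2.57 and 10.5 FPKM in 5637 cells and 7.36, 13.9 and 48.5 in UM-UC3 cells. Its log2 change was 2.35 (standard error 0.27, adjusted p = 0.0166), and the ratio of 2 mM to DMSO was close in the lines (5637 6.54, UM-UC3 6.58). CDKN1A, the CDK inhibitor p21, had 18.1, 22.9 and 68.7 FPKM in 5637 cells and 11.5, 19.7 and 62.9 in the UM-UC3 line (2.11, standard error 0.26, adjusted p = 0.0235). Most of its rise came after 1 mM in both lines. DDIT3, which encodes CHOP, a factor that can promote cell death under ER stress, had 3.22, 3.39 and 9.74 FPKM in 5637 cells and 110.0, 179.5 and 488.3 in the UM-UC3 line (1.74, standard error 0.28, adjusted p = 0.0397). The lines thus differed more in the level of DDIT3 than in its change.

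Of 20 measured core histone genes of the histone clusters, a group taken after values were seen, 4 rose and 0 fell, with a median fitted log2 change of 0.40. Of all genes tested, 1.5% rose and 1.27% fell. H2BC5 had 5.28, 9.50 and 19.7 FPKM in 5637 cells and 12.4, 27.1 and 71.1 in UM-UC3 cells. It rose by 2.08 (standard error 0.18, adjusted p = 0.00748), and H2AC6 rose by 1.70 (standard error 0.19, adjusted p = 0.0147). H4C8 and H2BC8 were the others. H4C3, which did not pass the test, stood lower at 2 mM, with 15.3, 17.2 and 8.10 FPKM in 5637 cells and 8.07, 8.94 and 3.28 in UM-UC3 cells (-0.96, adjusted p = 0.104). Transcripts of such genes mostly lack a poly(A) tail, and these libraries were made from poly(A) RNA. DNAJC6, which encodes auxilin, a chaperone partner that uncoats clathrin vesicles, rose by 1.42 (standard error 0.15, adjusted p = 0.0147) with 0.352, 1.23 and 2.52 FPKM in 5637 cells against 4.38, 7.26 and 13.8 in UM-UC3 cells. SRXN1, sulfiredoxin, which repairs overoxidized peroxiredoxins, had 27.9, 32.5 and 71.6 FPKM in 5637 cells and 37.3, 50.002 and 96.6 in the UM-UC3 line (1.34, standard error 0.19, adjusted p = 0.0297). NGFR, a receptor for neurotrophins, stood at 4.70 and 6.13 FPKM at 2 mM against 0.0947 and 0.490 with DMSO.

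The 10 largest falls were chosen in the same way, from genes called in the trend. HAS2, MMP10 and IGFBP6 had larger fitted falls (-2.11, -2.08 and -2.02) and were not called. Of the 10, ARHGDIB had 117.8, 63.1 and 34.3 FPKM in 5637 cells and 3.96, 1.75 and 0.559 in the UM-UC3 line (log2 change -1.71, standard error 0.13, adjusted p = 0.00748). It was called in 5 of the 6 fits that left out 1 library, more often than any other of the 20 named genes that passed the trend test among the shared genes and the largest changes. Of these, EGR1, SRXN1 and GLIPR1 were called in 1 of the 6 fits, 11 genes, ATF3, CDKN1A, DDIT3, PEG10 and CAV1 among them, in 2, TGM2 and KCNN4 in 3, and H2BC5, MT-TF and HDGF in 4. HDGF, a heparin-binding growth factor found in the nucleus, had 207.2, 126.7 and 77.5 FPKM in 5637 cells and 96.9, 58.2 and 30.4 in the UM-UC3 line (-1.52, standard error 0.13, adjusted p = 0.00748). KCNN4, a calcium-activated potassium channel, had 32.6, 14.2 and 6.23 FPKM in 5637 cells and 7.56, 4.55 and 1.95 in the UM-UC3 line (-1.88, standard error 0.18, adjusted p = 0.0135).

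CAV1, caveolin-1, had 382.5, 341.3 and 152.7 FPKM in 5637 cells and 131.2, 56.5 and 21.8 in UM-UC3 cells. It fell by 1.93 (standard error 0.29, adjusted p = 0.0355), with a small step at 1 mM in 5637 cells and a large one in UM-UC3 cells. COL17A1, a collagen of hemidesmosomes, fell by 1.48 (standard error 0.18, adjusted p = 0.0171), NRG1, a ligand of ERBB receptors, by 1.52 (standard error 0.26, adjusted p = 0.0402), and TRIP6, a LIM protein of focal adhesions, by 1.47 (standard error 0.17, adjusted p = 0.0166). COL17A1 was low in UM-UC3 cells, with 1.67, 0.444 and 0.108 FPKM, against 74.7, 36.0 and 22.4 in 5637 cells. MT-TF, the mitochondrial tRNA for phenylalanine, had 205.5, 139.0 and 71.0 FPKM in 5637 cells and 152.8, 89.3 and 43.7 in UM-UC3 cells (-1.65, adjusted p = 0.00748). It is a tRNA, which poly(A) selection does not aim at, and 0 of the 13 mitochondrial messenger RNAs were called in either direction.

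Some genes with a mean of at least 4 had reached at least 0.8 of their change by 1 mM in both lines. Among those with the largest changes, GSTZ1, an enzyme of tyrosine breakdown, had 11.1, 16.2 and 17.1 FPKM in 5637 cells and 10.7, 21.4 and 20.2 in UM-UC3 cells. CLPP, the mitochondrial matrix protease, had 20.7, 11.1 and 14.9 FPKM in 5637 cells and 22.0, 13.1 and 13.1 in UM-UC3 cells. Neither passed the trend test (adjusted p 0.0893 and 0.193), which does not look for a step at 1 mM, and with 1 mM alone against DMSO limma called 3 genes higher and 4 lower.

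Other genes had less than 0.25 of their change at 1 mM in both lines. PPP1R15A (GADD34), which brings phosphatase 1 to eIF2 and so ends the stress response, had 17.2, 18.4 and 51.0 FPKM in 5637 cells and 43.0, 48.8 and 73.9 in UM-UC3 cells. POLA2, a subunit of DNA polymerase alpha, had 17.9, 20.2 and 7.65 FPKM in 5637 cells and 5.35, 5.49 and 2.01 in UM-UC3 cells. Both stood near DMSO at 1 mM and apart from it at 2 mM, and neither passed the trend test (adjusted p 0.0654 and 0.0860). KIF20A, a kinesin of cytokinesis in the same group, did (log2 change -1.001, standard error 0.20, adjusted p = 0.0475), with 41.7, 36.4 and 24.1 FPKM in 5637 cells and 39.6, 35.5 and 16.2 in UM-UC3 cells.

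In the integrated stress response list ASNS and CHAC1 differed between the lines, and more members rose in 5637 cells than in UM-UC3 cells. A trend fitted within each line, chosen after seeing the data, called 702 genes that rose (5.55%) and 431 that fell (3.41%) in 5637 cells, and 173 (1.37%) and 352 (2.78%) in UM-UC3 cells. Of 32 measured genes of the stress response list, 16 rose and 0 fell in 5637 cells, and in UM-UC3 cells 2 rose, ATF3 and DDIT3, and 1 fell, GDF15. In the trend over both lines, ATF3 and DDIT3 were the 2 called. The median difference of the list at 2 mM was 0.95 in 5637 cells and 0.26 in UM-UC3 cells on the log2 scale, beside 0.07 and -0.0036 for all genes tested, and at 1 mM it was 0.10 and 0.19. Leaving out any of the 6 libraries reduced the calls of these line trends to between 0 and 16 over all genes. This list and those that follow were chosen with earlier results of these data known. Their counts beside the shares of all genes are thus a description and no independent support.

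ASNS, which makes asparagine from aspartate and glutamine, had 5.09, 26.0 and 165.7 FPKM in 5637 cells, a ratio of 32.5 between 2 mM and DMSO. In UM-UC3 cells it had 161.9, 188.0 and 289.7. The level of UM-UC3 cells with DMSO was thus close to that of 5637 cells at 2 mM. The log2 change over 0 to 2 mM was 4.77 in 5637 cells (standard error 0.20, adjusted p = 0.000139) and 0.84 in UM-UC3 cells (adjusted p = 0.0606), and the lines differed by 3.94 (standard error 0.28, adjusted p = 0.00462). CHAC1, which breaks down glutathione, had 0.553, 3.51 and 25.3 FPKM in 5637 cells and 7.42, 11.8 and 15.2 in UM-UC3 cells. Its change was larger in 5637 cells by 3.14 (standard error 0.39, adjusted p = 0.0233).

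Enzymes of serine and one-carbon supply rose in 5637 cells too. PSAT1 had 22.3, 32.0 and 92.6 FPKM there and 54.2, 73.9 and 67.9 in UM-UC3 cells (adjusted p = 0.00952 in 5637 cells, 0.560 in UM-UC3 cells), PHGDH, which opens serine synthesis, had 93.4, 119.7 and 199.2 against 195.8, 173.0 and 159.5, and MTHFD2 had 28.0, 42.2 and 65.2 against 110.9, 145.3 and 145.5. SLC7A11, the cystine importer, had 10.1, 13.1 and 34.9 FPKM in 5637 cells and 22.9, 23.2 and 27.5 in UM-UC3 cells. The difference between the lines did not pass for these 4 genes (adjusted p between 0.0585 and 0.152). Of 20 aminoacyl-tRNA synthetases, which load amino acids on tRNAs, 0 were called over both lines and 0 in UM-UC3 cells. Within 5637 cells 5 of the 20 rose and 2 fell, beside 5.55% and 3.41% of all genes. AARS1 and GARS1, for alanine and glycine, were the 2 that passed the difference between the lines, with log2 changes larger in 5637 cells by 1.77 and 1.79 (adjusted p = 0.0233 and 0.0363). GARS1 had 31.0, 63.3 and 90.1 FPKM in 5637 cells and 123.8, 99.7 and 101.5 in UM-UC3 cells.

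**Figure D3:**
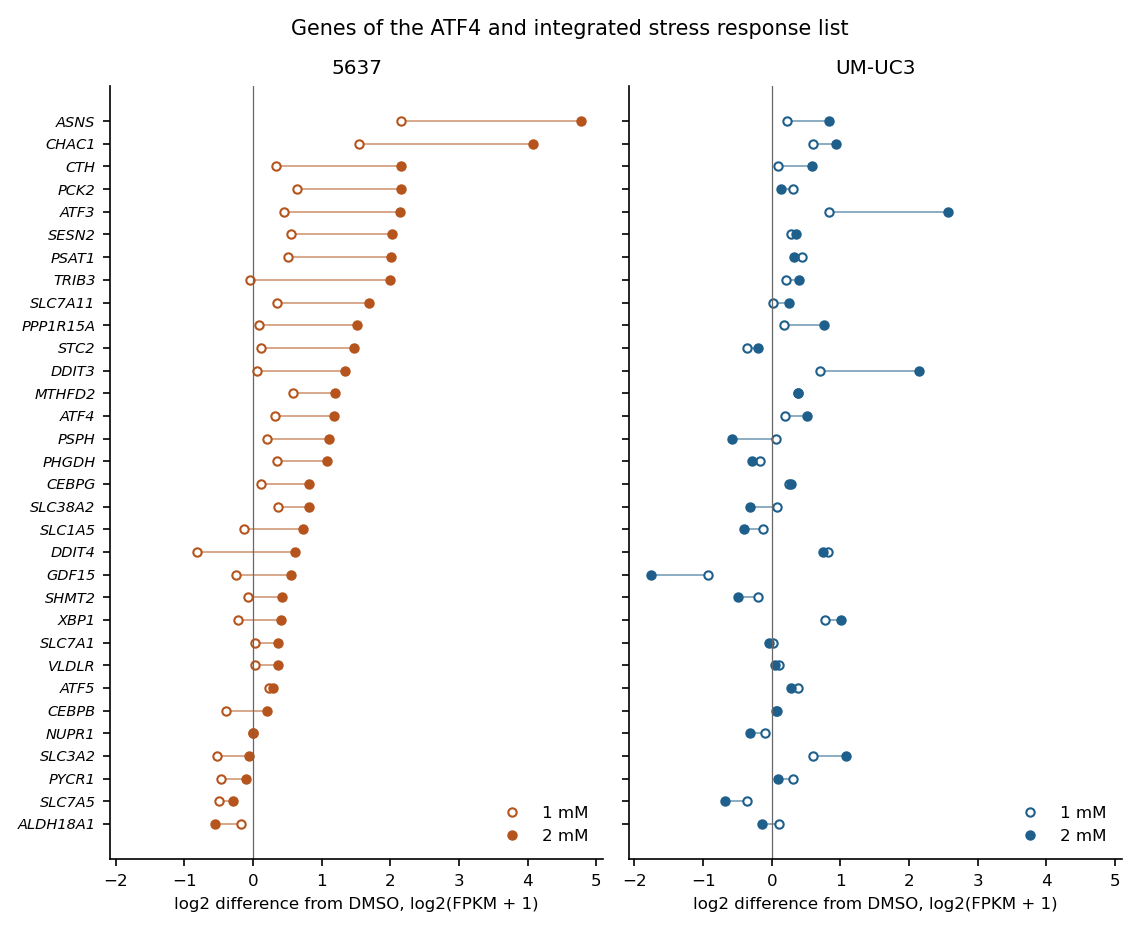
Log2 difference from DMSO on log2(FPKM + 1) (x axis) at 1 mM (open circles) and 2 mM (filled circles) for the 32 measured genes of the stress response list (y axis), in 5637 cells on the left and UM-UC3 cells on the right, 1 library per point. ASNS and CHAC1 lie farthest right in 5637 cells at both doses, while ATF3 and DDIT3 lead in UM-UC3 cells.

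ATF4 binds elements near the promoters of several of these genes, and the sequence TGATGNAAN (CARE) was searched on both strands of RefSeq promoter windows, from 250 bases before to 50 after a gene's start, in GRCh38.p14. It was present in 6 of 28 windows found for the stress response list (21.4%) and in 1268 of all 35116 windows (3.61%), a description and not a test. The list was drawn up around ATF4 itself, so that its share is not independent of this motif. Only the first window of each listed or named gene was searched, while the share of all windows counts every window, so that the units differ. Of 63 named genes, 43 had a window and 5 of those held it, ATF3, ASNS and CHAC1 of the stress response list and FAXDC2 and DLGAP1-AS2, which were lower in UM-UC3 cells only by the 2-fold rule. The stretches around the matches of the 3 stress genes, chosen after their values were seen, are shown with the match in capitals. ATF3 rose in both lines, and the changes of ASNS and CHAC1 differed between them. They are the strand of the gene, 5′ to 3′, and the match in CHAC1 is that of the opposite strand.
ATF3 (chr1:212565176-212565264, plus strand): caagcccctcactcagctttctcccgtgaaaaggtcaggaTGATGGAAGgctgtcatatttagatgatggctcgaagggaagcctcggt
ASNS (chr7:97872428-97872516, minus strand): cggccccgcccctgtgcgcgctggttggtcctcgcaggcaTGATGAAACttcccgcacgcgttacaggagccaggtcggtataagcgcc
CHAC1 (chr15:40953221-40953309, plus strand): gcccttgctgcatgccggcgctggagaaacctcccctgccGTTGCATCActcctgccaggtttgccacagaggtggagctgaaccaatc
The first bases of the matches lay at -191, -68 and -210 from the start. No match to these letters was found in the same window of DDIT3, which held the AP-1 motif TGANTCA, present in 7.71% of all windows. The CRE TGACGTCA was present in 1.85%, the E-box CACGTG in 7.26%, the antioxidant element TGANNNNGC in 41.8% and the xenobiotic element GCGTG in 36.5%. The exact PPAR element was in 8 of all 35116 windows (0.0228%). It is so rare that its absence from the 43 windows of named genes says nothing about them. ENO1 was not among the genes searched by name.

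The other lists are taken by role, with the trend over both lines as the test and medians as fitted log2 changes from 0 to 2 mM, 0.03 for all genes. In that trend 1.5% of all genes rose and 1.27% fell. Of 18 ER chaperones and folding factors, 4 rose and 0 fell. DNAJB9, a co-chaperone of BiP, had 2.17, 2.35 and 5.42 FPKM in 5637 cells and 6.59, 14.04 and 34.7 in the UM-UC3 line (1.63, standard error 0.28, adjusted p = 0.0425). ERO1B, an oxidase of protein disulfides, SEL1L and HERPUD1, both of ER-associated degradation, rose by 1.00, 0.66 and 0.82 (adjusted p = 0.0475, 0.0478 and 0.0475). The median of the list was 0.14, with -0.10 in 5637 cells and 0.35 in UM-UC3 cells at 2 mM. Outside the list ERN1, which encodes the ER stress sensor IRE1, rose by 1.10 (adjusted p = 0.0355).

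Of 18 NRF2 targets SRXN1 alone rose over both lines, with a median of 0.53, while 7 rose and 1 fell within 5637 cells and 2 rose and 0 fell within UM-UC3 cells, beside the 5.55% and 1.37% of all genes that rose there. TXNRD1, a thioredoxin reductase, had 40.2, 57.7 and 136.4 FPKM in 5637 cells and 237.4, 281.2 and 295.8 in UM-UC3 cells. It rose in 5637 cells (adjusted p = 0.00683) and did not pass in UM-UC3 cells (0.439) or for the difference (0.0853). PIR fell in 5637 cells, from 30.5 to 10.9 and 7.32 FPKM, and had 8.63, 11.9 and 11.8 in UM-UC3 cells, with a difference between the lines of 2.33 (adjusted p = 0.0372). Of 4 measured genes of metallothioneins and zinc export MT2A, which binds zinc and copper, rose, with 364.8, 680.2 and 678.0 FPKM in 5637 cells and 557.9, 887.4 and 1166 in UM-UC3 cells (0.98, adjusted p = 0.0470). NQO2, a quinone reductase that binds melatonin, had 5.004, 6.68 and 8.59 FPKM in 5637 cells and 12.6, 16.3 and 25.02 in the UM-UC3 line and rose by 0.81 (adjusted p = 0.0402). It was the 1 riser among 5 measured genes of aryl hydrocarbon receptor targets and melatonin metabolism.

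Genes of mitosis gave the most falls of all lists in the trend over both lines. Of 33, 7 fell and 0 rose there, with a median of -0.74, and 12 were below DMSO in all 4 libraries. Of all genes tested, 1.27% fell in this trend and 14.8% were below DMSO in all 4 libraries. Within 5637 cells 2 of the list fell and within UM-UC3 cells 8, beside 3.41% and 2.78% of all genes. The 7 were PLK1, UBE2C, AURKA, MKI67, KIF20A, TPX2 and BUB1B. PLK1, the kinase of mitotic entry, had 67.4, 51.9 and 32.4 FPKM in 5637 cells and 31.2, 22.1 and 12.5 in UM-UC3 cells (-1.15, adjusted p = 0.0171). MKI67, the proliferation marker, had 74.4, 68.4 and 44.3 FPKM in 5637 cells and 34.7, 27.3 and 13.9 in UM-UC3 cells (-0.9985, adjusted p = 0.0443). The median difference of the list in the 5637 line was 0.03 at 1 mM and -0.51 at 2 mM, and in the UM-UC3 line -0.15 and -0.87, so that most of it lay at the higher dose.

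Of 33 genes of S phase, MCM7, a subunit of the replicative helicase, and UHRF1, which maintains DNA methylation, fell by 0.78 and 1.28 (adjusted p = 0.0464 and 0.0466), and 0 rose. Within a line 9 of the 33 fell in UM-UC3 cells and 1 in 5637 cells, beside 2.78% and 3.41% of all genes. The difference between the lines called 0 of the 33. MCM5 had 16.5, 8.89 and 4.42 FPKM in UM-UC3 cells and 23.2, 17.3 and 23.3 in 5637 cells. Of 11 CDK inhibitors and D cyclins, CDKN1A rose and CCND1, cyclin D1, fell, having 58.9, 50.7 and 37.6 FPKM in 5637 cells and 113.8, 102.3 and 76.0 in UM-UC3 cells (-0.61, adjusted p = 0.0487). TUBA1B and TUBA1C were the 2 of 10 tubulin genes that fell, and TUBA1B had 1439, 1162 and 708.4 FPKM in 5637 cells and 432.9, 315.7 and 169.3 in UM-UC3 cells.

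Among death and damage genes, PMAIP1 (NOXA), a BH3-only protein that antagonizes MCL1, had 18.3, 30.6 and 48.2 FPKM in 5637 cells and 8.99, 12.2 and 21.4 in UM-UC3 cells. It rose by 1.26 (adjusted p = 0.0147), the 1 called of 16 BCL2 family genes. GADD45A, a p53 target that binds PCNA, was the 1 called of 17 p53 targets, a list that leaves out CDKN1A and PMAIP1, also p53 targets and counted with the CDK inhibitors and the BCL2 family, with 16.5, 24.04 and 33.7 FPKM in 5637 cells and 36.7, 49.9 and 75.4 in UM-UC3 cells (1.00, adjusted p = 0.0171).

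FOSL1, an AP-1 subunit, had 72.1, 45.2 and 33.1 FPKM in 5637 cells and 48.4, 29.96 and 20.01 in the UM-UC3 line and fell by 1.17 (adjusted p = 0.0147). With EGR1 it made up the 2 called of 13 AP-1 and EGR factors. Of 13 genes of ERK feedback, DUSP6, a phosphatase of ERK, and ETV5, an ETS factor, rose by 1.08 and 1.21 (adjusted p = 0.0465 and 0.0244). ETV5 had 0.200, 0.585 and 2.01 FPKM in 5637 cells and 37.7, 50.04 and 81.2 in UM-UC3 cells. NR1D2, a nuclear receptor of the circadian clock, was the 1 called of 15 clock genes and rose by 0.69 (adjusted p = 0.0461). Of 27 genes of autophagy and the lysosome 1 rose over both lines, WIPI1, which marks forming autophagosomes, and 8 rose within 5637 cells and 0 in UM-UC3 cells, beside 5.55% and 1.37% of all genes. The difference between the lines called 0 of the list.

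**Figure D4:**
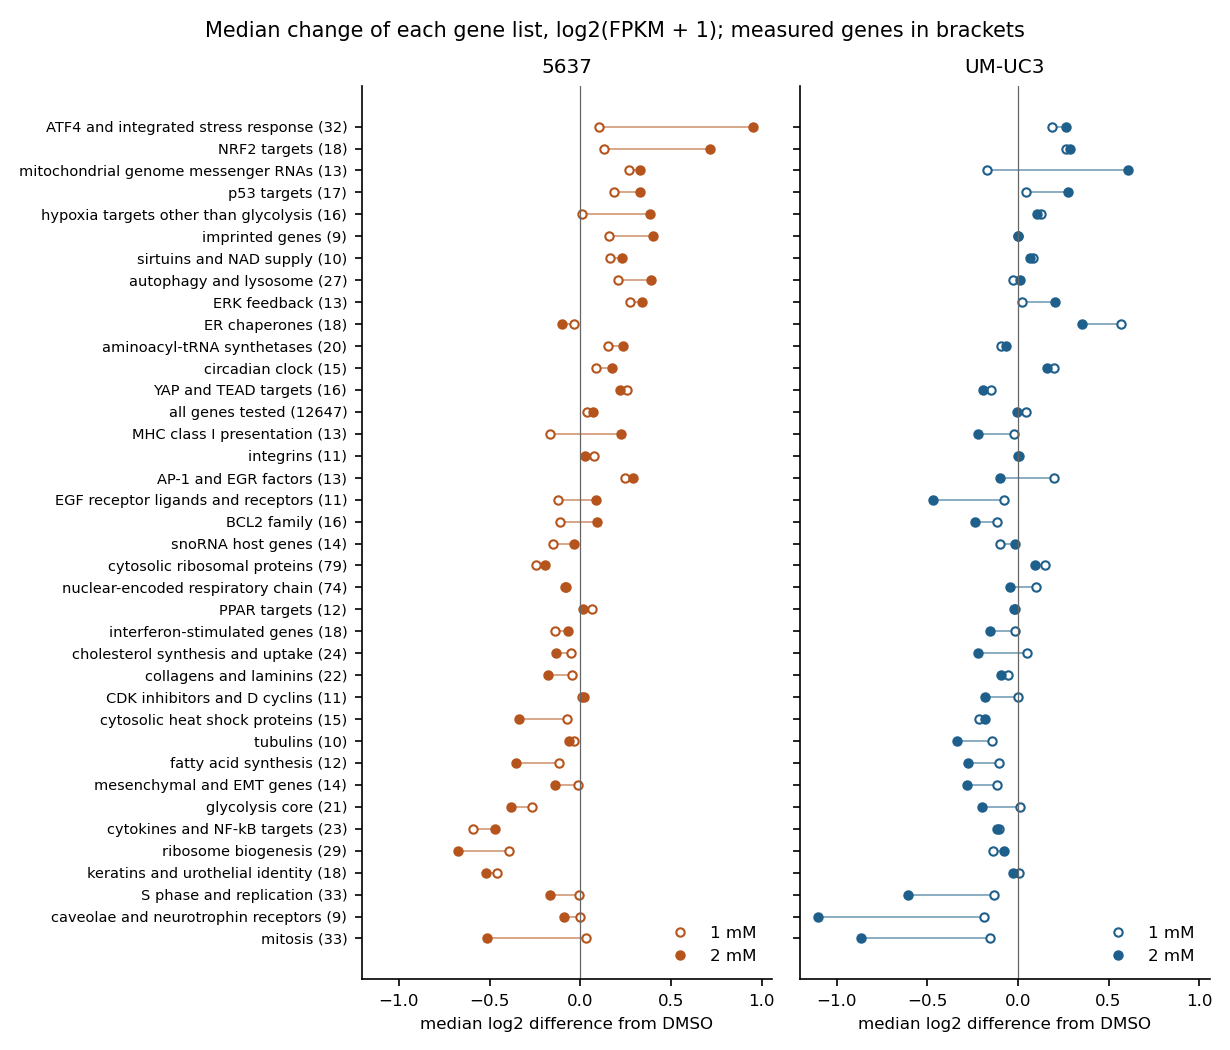
Median log2 difference from DMSO on log2(FPKM + 1) (x axis) of each gene list with at least 8 measured genes, cell type markers left out, and of all 12647 genes (y axis, number measured in brackets), at 1 mM (open) and 2 mM (filled), 5637 cells left and UM-UC3 cells right. The stress response list lies at 0.95 in 5637 cells at 2 mM, and the mitosis list at -0.51 in 5637 cells and -0.87 in UM-UC3 cells.

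Of 21 measured core genes of glycolysis 0 were called, and the median was -0.34. Below DMSO in all 4 libraries were 7 of the 21, beside 14.8% of all genes. PGAM1, the phosphoglycerate mutase, had 123.6, 87.3 and 72.3 FPKM in 5637 cells and 71.9, 72.1 and 43.8 in UM-UC3 cells (adjusted p = 0.0516). GPI had 90.8, 64.1 and 54.4 FPKM in 5637 cells and 83.1, 78.6 and 60.5 in UM-UC3 cells (adjusted p = 0.0623). ENO1, alpha-enolase, had a log2 change of -0.51, which did not pass (adjusted p = 0.105). Within 5637 cells SLC2A1, HK2, GPI and PFKM fell and ENO2 rose, beside 3.41% of all genes that fell and 5.55% that rose. ENO2, the neuronal enolase, had 1.91, 5.17 and 12.2 FPKM in 5637 cells and 22.1, 22.4 and 25.4 in UM-UC3 cells, and the lines differed by 1.99 (standard error 0.24, adjusted p = 0.0233).

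FABP4, the fatty acid binding protein of adipocytes and bladder epithelium, had 59.6, 8.11 and 4.58 FPKM in 5637 cells and is listed at 0 in the 3 UM-UC3 libraries. FABP5 had 176.4, 92.9 and 81.8 FPKM in 5637 cells and 34.99, 28.6 and 29.2 in UM-UC3 cells. Of 12 measured PPAR targets, 0 were called over both lines. In 5637 cells 3 of the 12 fell and 1, CPT1A, rose, beside 3.41% and 5.55% of all genes. Of lipid genes, FASN, fatty acid synthase, had 103.2, 64.1 and 52.4 FPKM in 5637 cells and 18.5, 14.9 and 13.3 in UM-UC3 cells (adjusted p = 0.0574). ACSL1, which activates fatty acids, rose by 0.97 (adjusted p = 0.0467), and ACAT2, of cholesterol synthesis, fell by 0.77 (adjusted p = 0.0475).

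Of 29 genes of ribosome biogenesis 0 were called over both lines, though 15 were below DMSO in all 4 libraries and 14 fell within 5637 cells, against 0 in UM-UC3 cells. Of all genes tested, 14.8% were below DMSO in all 4 libraries, and 3.41% fell in 5637 cells and 2.78% in UM-UC3 cells. BOP1, of pre-rRNA processing, had 51.1, 32.3 and 24.2 FPKM in 5637 cells and 56.5, 47.1 and 47.1 in UM-UC3 cells. The difference between the lines called 0 of the list. Of 15 cytosolic heat shock genes 11 were below DMSO in all 4 libraries, beside 14.8% of all genes. HSPB1, a small heat shock protein, fell by 1.44 (adjusted p = 0.0330), with 71.9, 28.2 and 23.5 FPKM in 5637 cells and 26.1, 20.7 and 9.95 in UM-UC3 cells. None of 79 cytosolic ribosomal protein genes was called in either direction.

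Of 18 keratins and urothelial genes, KRT15 and TP63, a master factor of basal epithelium, fell over both lines. TP63 had 54.4, 33.3 and 21.0 FPKM in 5637 cells and 3.16, 2.86 and 0.659 in UM-UC3 cells (-1.33, adjusted p = 0.0330). Of 23 cytokines and NF-kB targets, 10 were below DMSO in all 4 libraries, beside 14.8% of all genes. IL32, an inflammatory cytokine of this list, fell by 1.44 (adjusted p = 0.0470). OAS3, an antiviral synthetase, was the 1 called of 18 interferon-stimulated genes, with 17.0, 10.0 and 7.23 FPKM in 5637 cells and 4.97, 3.55 and 1.19 in UM-UC3 cells (-1.29, adjusted p = 0.0296).

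The genes of 1 line were found by a rule of size, both melatonin libraries at least 2-fold from DMSO in that line and a mean log2 difference under 0.25 in the other. By this rule 11 genes were above DMSO in 5637 cells only (0.087%) and 56 below (0.443%), and in UM-UC3 cells 1 above (0.00791%) and 13 below (0.103%). Many were near 0 in the other line. Of them, 48 of the 56 were under 1 FPKM in all 3 UM-UC3 libraries, as were 5 of the 11, and 6 of the 13 were under 1 FPKM in the 5637 libraries. Where a gene is near 0 in a line, that line cannot show a fall. The difference of the line trends, chosen after seeing the data, called 45 genes as higher in UM-UC3 cells (0.356%) and 69 as higher in 5637 cells (0.546%). The 1-line genes were chosen on the same libraries, so that this test is no independent support for them. In each of the 6 fits without 1 library it called 0 genes.

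Of the genes lower in 5637 cells only, MMP10, stromelysin-2, a matrix protease, had 50.5, 6.03 and 1.84 FPKM in 5637 cells and 0.149, 0.111 and 0.163 in UM-UC3 cells, and its level in 5637 cells with DMSO was 27.5 times that at 2 mM. SLC38A5, a transporter of glutamine and other neutral amino acids, had 38.7, 6.44 and 1.93 FPKM in 5637 cells and at most 0.0468 in UM-UC3 cells. FST, follistatin, which binds activin, had 68.1, 29.5 and 5.44 FPKM in 5637 cells and at most 0.0174 in UM-UC3 cells. All 3 were far below DMSO at 2 mM, and MMP10 and SLC38A5 already at 1 mM. MMP13, collagenase 3, had 14.4, 1.78 and 0.235 FPKM, KRT13, a keratin of stratified epithelium, 21.7, 4.75 and 2.11, and IL1B, interleukin 1 beta, 52.1, 15.9 and 7.77 in 5637 cells, and all 3 were near or at 0 in UM-UC3 cells. HAS2, hyaluronan synthase 2, did not meet the rule, since its mean difference in UM-UC3 cells was -0.31, and was expressed in 5637 cells at 22.1, 4.38 and 0.829 FPKM and in UM-UC3 cells at 1.16, 1.09 and 0.461.

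Of the genes higher in 5637 cells only, MAP1B, a microtubule-associated protein of neurons, had 0.716, 2.93 and 12.6 FPKM there and 35.5, 37.4 and 45.9 in the UM-UC3 line (difference of the log2 changes 2.63 in favour of 5637 cells, standard error 0.29, adjusted p = 0.0233). MAP2, of the same kind, had 1.60, 6.16 and 13.6 FPKM in 5637 cells and at most 0.0741 in UM-UC3 cells. PPL, periplakin, a linker of desmosomes, had 2.75, 6.88 and 14.8 FPKM in 5637 cells and at most 0.0142 in UM-UC3 cells. CLU, clusterin, a secreted chaperone, did not meet the rule, with a mean difference of 0.41 in UM-UC3 cells. It had 1.25, 5.99 and 21.1 FPKM in 5637 cells and 40.7, 59.5 and 49.8 in the UM-UC3 line (difference 3.01, standard error 0.32, adjusted p = 0.0233). MAP1B, ENO2, CLU and ASNS thus started low in 5637 cells and stayed below the level of UM-UC3 cells at 2 mM.

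**Figure D5:**
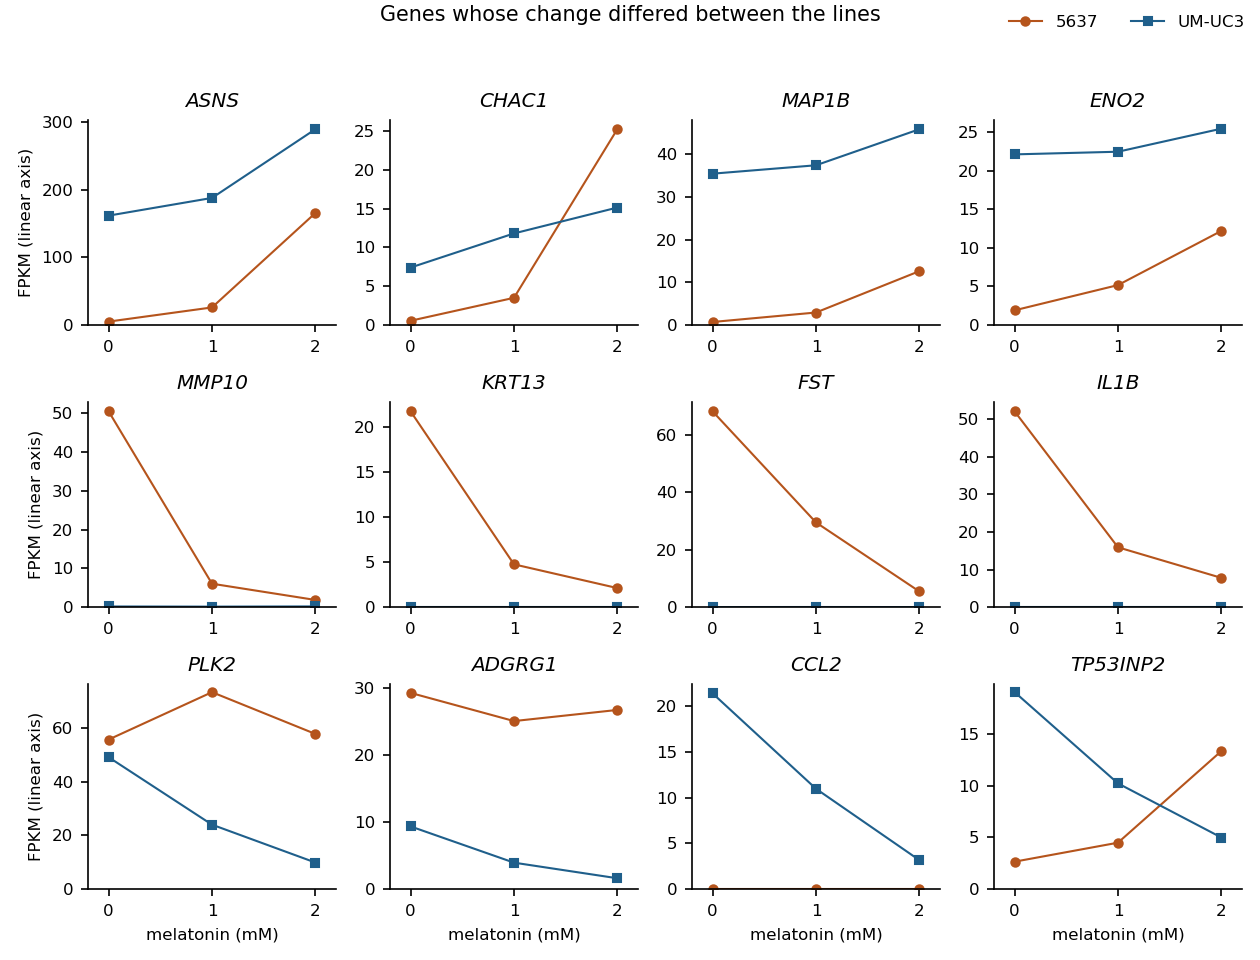
FPKM (y axis, linear, from 0) against the melatonin dose in mM (x axis) for 12 genes that passed the difference of the line trends, with 5637 cells as circles and UM-UC3 cells as squares, 1 library per point and no replicates. ASNS climbs from 5.09 to 165.7 in 5637 cells, MMP10, KRT13, FST and IL1B are near 0 in UM-UC3 cells throughout, CCL2 is listed at 0 in 5637 cells, and the lines of TP53INP2 cross.

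Of the genes of UM-UC3 cells, SPX, which encodes the peptide hormone spexin, had 1.30, 3.62 and 15.2 FPKM there and is listed at 0 in the 3 libraries of 5637 cells. PLK2, a polo-like kinase induced by p53 and stress, had 49.0, 23.95 and 9.87 FPKM in UM-UC3 cells and 55.6, 73.2 and 57.7 in 5637 cells. It is expressed in both lines, and its changes differed by 2.25 (standard error 0.31, adjusted p = 0.0252). ADGRG1, an adhesion receptor, had 9.35, 3.94 and 1.61 FPKM in UM-UC3 cells and 29.3, 25.1 and 26.7 in 5637 cells (1.86, standard error 0.25, adjusted p = 0.0253). LAMB3, a chain of an epithelial laminin, had 11.2, 4.83 and 3.48 FPKM in UM-UC3 cells and 54.2, 49.1 and 49.1 in 5637 cells, and this difference did not pass (adjusted p = 0.0935). CCL2, a chemokine for monocytes, did not meet the rule, being less than 2-fold below DMSO at 1 mM (log2 difference -0.90). It had 21.4, 11.0 and 3.17 FPKM in UM-UC3 cells and is listed at 0 in 5637 cells.

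Fewer genes were called in opposite directions than in the same direction in both lines. The line trends called 9 genes as risers in the 5637 line and fallers in the UM-UC3 line, and 2 of the reverse kind, beside 40 that rose and 49 that fell in both. The 40 were 5.70% of the genes that rose in 5637 cells and 23.1% of those that rose in UM-UC3 cells. The 49 were 11.4% and 13.9% of those that fell. For risers the shares of all genes to set beside these are 1.37% in UM-UC3 cells and 5.55% in 5637 cells. For fallers, in the same order, they are 2.78% and 3.41%. In each of the 6 fits without 1 library the UM-UC3 trend called 0 genes. No gene was thus called in both lines there, in the same direction or in opposite ones. TP53INP2, a promoter of autophagy, had 2.65, 4.49 and 13.4 FPKM in 5637 cells and 19.1, 10.2 and 4.99 in the UM-UC3 line (difference 3.72, standard error 0.34, adjusted p = 0.0176). OPTN, the autophagy receptor optineurin, had 9.82, 12.6 and 18.6 FPKM in 5637 cells and 48.6, 34.98 and 25.1 in UM-UC3 cells, and SDC4, the heparan sulfate proteoglycan syndecan-4, had 28.2, 41.2 and 57.5 against 38.0, 27.4 and 22.3. In the reverse direction HTR7, a serotonin receptor, had 12.8, 10.7 and 6.11 FPKM in 5637 cells and 6.34, 9.49 and 13.97 in the UM-UC3 line (difference 1.99, standard error 0.28, adjusted p = 0.0256). Each of these 4 genes moved step by step with the dose in both lines, in opposite directions.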

How the data were processed

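Poly(A) RNA of 6 libraries, 3 doses in each of 2 lines, was compared. The study's methods give trimming by Cutadapt 1.18 and Trimmomatic 0.35 and mapping to GRCh38 by HISAT2 2.1.0. StringTie and edgeR stand in the submitters' processing notes with no role. The deposited sheet gives 1 value per gene and library and does not name its unit. The values were taken as FPKM, made by the authors, since they are not whole and are of the usual FPKM size. No counts were used, so that no count model was run and the read depth is unknown. Another deposited sheet repeats the values of 22465 of these genes and was left out.

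Genes with a mean of at least 1 over the 6 libraries were tested on log2(FPKM + 1) with limma (3.58.1, under R 4.3.3; eBayes with trend and robust, Benjamini-Hochberg over all 12647 genes, threshold 0.05). A fold change on this scale understates that of low genes. The trend uses the dose divided by 2. Each dose of each line has 1 library, so that the spread comes from departures from the model and not from replicates, and 1 and 2 mM stand in for replicates in the first comparison. Genes were named as the shared and 1-line genes of the 2-fold rule, as the 4 members of a list with the smallest p, and as those that reach their change at 1 or at 2 mM. The largest changes among genes called in the dose trend, called members of the lists and the differences of the line trends were named after their values were seen. Some genes that these rules give are not reported here. The members and gene lists were chosen with earlier results of these data known. Promoter windows, 300 bases, are from RefSeq (GRCh38.p14). The first comparison and the dose trend were tested on simulated data. Alternatives were another scaling of the libraries, a pseudocount of 0.1, no filter, a mean of at least 5, a 1.5-fold rule, single doses, no line term, all 8 libraries with a term for 4 mM, limma without trend and robust, and leaving out each library.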

Additional observations from a re-analysis of the deposited data

Results flagged for a closer look

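In 88 genes with a mean of at least 4 FPKM the dose trends of the lines differed by the test of the difference itself, chosen after seeing the data, and the 6 largest differences in each direction are given. The values are UM-UC3 minus 5637, as log2 changes over 0 to 2 mM. The difference was positive for MMP10 (4.20), SLC38A5 (3.73), FST (3.43), MATR3 (3.15), HAS2 (3.09) and KRT13 (2.87), and negative for AL161431.1 (-4.40), ASNS (-3.94), TP53INP2 (-3.72), CHAC1 (-3.14), CLU (-3.01) and MAP1B (-2.63). MMP10, SLC38A5, FST and KRT13 had at most 0.163 FPKM in UM-UC3 cells, a level from which no fall can be seen, so that their difference shows the fall in 5637 cells and does not compare the lines. Of the 88 genes, 17 were under 1 FPKM in all 3 libraries of a line. The long noncoding RNA AL161431.1 had at 0, 1 and 2 mM 16.2, 26.3 and 36.4 FPKM in the 5637 line, and 37.0, 5.74 and 2.91 in the UM-UC3 line. MATR3 has 2 overlapping gene entries. The one flagged had 60.3, 22.6 and 9.18 FPKM in 5637 cells and 50.6, 64.6 and 75.3 in UM-UC3 cells, the other had 71.7, 101.9 and 77.8 and 79.4, 82.9 and 51.1, and reads could be split between them, so that MATR3 is uncertain. Without any 1 of the 6 libraries this test called 0 genes.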

How the results depend on the processing

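No dose and line has a replicate, so that every call rests on the fit. With 1 mM alone against DMSO 7 genes were called over both lines, and without the line term 0 (40 higher and 28 lower unadjusted). With all 8 libraries and a term for 4 mM 0 were called (508 and 309 unadjusted). The line was the replicate block of the comparison over both lines and of its dose trend, and no pairing of replicates within a dose exists, since each group holds 1 library. With no filter the comparison within 5637 cells called 834 genes, that within UM-UC3 cells 906 and the difference between the lines 1312, and the dose trend 0 (1788 higher and 1363 lower unadjusted). With a mean of at least 5 the comparison within 5637 cells called 1. With a dose trend within each line, chosen after seeing the data, these counts were 1133, 525 and 114. Leaving out 1 library moved the dose trend over both lines between 0 and 652 genes, with 9, 60, 3 and 5 in between. Under the 1.5-fold rule 20 genes were shared above and 33 below DMSO, 143 and 183 were of 5637 cells only and 55 and 81 of UM-UC3 cells only. Rescaling left 1 shared gene above, EGR1. With a pseudocount of 0.1 there were 8 shared above and 15 below, 41 above in 5637 cells only, and 14 above and 29 below in UM-UC3 cells only. With a mean of at least 5 there were 5 above and 28 below in 5637 cells only and 0 and 8 in UM-UC3 cells only. Without the 5637 library at 1 mM 6 shared genes were below, without that at 2 mM 17 were above in 5637 cells only, and 23 without UM-UC3 at 2 mM were below in UM-UC3 cells only. Over the 4 melatonin libraries left out in turn, the DMSO libraries being needed for the rule, the shared genes ranged from 2 to 4 above and from 3 to 10 below, those of 5637 cells only from 12 to 159 and from 57 to 143, and those of UM-UC3 cells only from 2 to 51 and from 14 to 141. For single named genes 125 values kept direction and side of the threshold, 92 kept the direction alone, and IGFBP6 passed without the 5637 library at 2 mM (-3.00, adjusted p = 0.000927). The cause of these shifts was not tested.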
